A study of Mus musculus with 10 samples.

Results

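PRDM16, a zinc finger transcription factor with an N-terminal PR domain, was mapped by anti-Flag ChIP-Seq in primary mouse vascular fibroblasts, and the peaks described here are the distal intergenic ones. They are the peaks shorter than 1000 bp on the assembled chromosomes whose centre lay inside no curated RefSeq transcript of GRCm38 and more than 20 kb from the nearest TSS of such a transcript. Of the 11271 peaks in the PRDM16 list, 1274 met this rule (11.3%, exact 95% interval 10.7% to 11.9%). The fibroblasts, which carried no engineered *Prdm16* allele, were infected for 48 hours with lentivirus for Flag-PRDM16 or for the empty vector and selected for 1 week in puromycin at 2 μg/mL, with 1 anti-Flag library per condition. PRDM16 in these cells was therefore introduced and tagged, and the cells are not VSMCs. No peak value has a replicate, no test between the conditions was made, and every interval given for a peak covers counting error only. Nearest genes were looked up in RNA-Seq of thoracic aortas from 3 Control mice, with floxed *Prdm16* and no Cre, and 3 *Prdm16*SMKO mice, which carry the same floxed alleles and SMMHC-CreERT2, a tamoxifen-inducible Cre driven by the smooth muscle myosin heavy chain promoter. As controls in general, the study's methods name both floxed *Prdm16* mice and mice with the Cre. The study's methods give tamoxifen at 8 weeks of age, 75 mg/kg per day for 5 days, followed by a washout of 2 weeks, to induce the knockout on the C57BL/6J background. Whether these Control mice were given tamoxifen is not stated for the RNA-Seq, and p-values measure the spread between these 6 aortas.

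Many enhancers lie in distal intergenic sequence. Enhancers are short stretches bound by combinations of transcription factors, they can act on a gene far along the chromosome, and the nearest gene is not always the one they act on. PRDM16 has 2 groups of zinc fingers, and the close relative MECOM is known to bind a sequence that starts GACAAGAT through the first group and one like GAAGATGAG through the second. AP-1, the dimer of FOS and JUN proteins, binds TGACTCA and is a common occupant of fibroblast enhancers, whereas GC boxes and CpG islands are typical of promoters.

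The sequences below show what lay under the strongest distal intergenic peaks. Each is the 101 bases centred on the summit, read from the forward strand of GRCm38, and is named by the nearest curated gene. In the first 2, capitals mark overlapping copies of ACAAGACAA, which together form a tandem repeat of the pentamer ACAAG, and in the third they mark CAGACAGA or its reverse complement.
Nav3, chr10:110026773-110026873: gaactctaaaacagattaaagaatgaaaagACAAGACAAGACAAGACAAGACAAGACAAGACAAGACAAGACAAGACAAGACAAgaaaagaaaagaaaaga
Tnip3, chr6:65510167-65510267: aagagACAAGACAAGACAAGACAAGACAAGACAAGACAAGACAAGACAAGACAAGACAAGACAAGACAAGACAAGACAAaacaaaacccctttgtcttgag
4930502A04Rik, chr9:68389987-68390087: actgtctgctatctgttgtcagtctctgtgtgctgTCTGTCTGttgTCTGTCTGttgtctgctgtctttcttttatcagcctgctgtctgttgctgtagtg
Zmiz1, chr14:25304486-25304586: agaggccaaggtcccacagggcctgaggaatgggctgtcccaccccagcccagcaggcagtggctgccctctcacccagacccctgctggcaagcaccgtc
The fourth held neither repeat in this window. The first window held 10 overlapping copies of the nonamer and the second 14, and 79.2% and 100% of their bases were soft-masked as repeats in the reference.

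The next set shows the strongest member with a given motif within 50 bases of its summit, with the motif in capitals, and the member with CpG island sequence that had the highest fold enrichment, which has no capitals. Both choices were made after values were seen.
AP-1 site near Zfp706, chr15:36938802-36938902: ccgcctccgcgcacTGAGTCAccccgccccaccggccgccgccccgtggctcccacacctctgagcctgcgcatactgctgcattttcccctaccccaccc
MECOM second-domain core near Foxp1, chr6:98775836-98775936: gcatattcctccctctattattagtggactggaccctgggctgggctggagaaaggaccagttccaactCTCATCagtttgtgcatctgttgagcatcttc
GATA core near Tgfbi, chr13:56588829-56588929: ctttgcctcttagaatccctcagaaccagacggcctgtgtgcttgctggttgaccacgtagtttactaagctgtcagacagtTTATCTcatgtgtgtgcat
CTCF core near Gm14321, chr2:167828370-167828470: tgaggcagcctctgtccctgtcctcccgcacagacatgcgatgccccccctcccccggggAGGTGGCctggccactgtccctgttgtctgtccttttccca
CpG island near Slc47a1, chr11:61408113-61408213: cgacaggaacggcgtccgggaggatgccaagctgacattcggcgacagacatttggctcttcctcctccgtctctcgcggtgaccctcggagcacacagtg
The CpG island window held 10 CpG dinucleotides in 101 bases, against 0 in the Nav3 window. A match of letters is a description of the sequence and is not evidence that a factor was bound there.

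The deposited fold enrichment and −log10 p of each peak fix the number of fragments at its summit and the local background, because both are set by these 2 quantities under the Poisson model of MACS2, the authors' peak caller. A single whole number of fragments fitted in 1273 of the 1274 members. The median member had 14 fragments at its summit (exact 95% interval of the median, 14 to 14), and the middle 50% of members had 12 to 17. At 67.2% of members the background was the genome-wide value of 1.84 fragments. The median fold enrichment was 4.92 (range 1.19 to 23.6), and 1 fragment is worth 0.352 in fold enrichment at the genome-wide background. The median −log10 q was 4.74 and the median length was 323 bp (range 224 to 998 bp). Of the members, 4.87% had a q above 0.01, the threshold the methods state (3.75% to 6.196%). Most distal intergenic peaks thus rest on few fragments, and differences of a few fragments between single members are within counting error.

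Summit heights of distal intergenic peaks were close to those of other peaks outside promoters. Near intergenic peaks, which lie 2 to 20 kb from a TSS, and peaks in gene bodies also had a median of 14 fragments, and promoter peaks, within 2 kb of a TSS, had 15. At least 20 fragments were found at 17.1% of distal intergenic peaks (15.1% to 19.3%), 18.3% of near intergenic peaks (15.7% to 21.2%), 13.4% of gene body peaks (12.02% to 14.9%), and 19.6% of promoter peaks (18.6% to 20.6%). At least 40 fragments were found at 1.73% of distal intergenic, 2.49% of near intergenic, 0.880% of gene body, and 0.468% of promoter peaks. Of these 22 distal intergenic peaks, 15 lay over a local background of more than 5 fragments. The other 7 are peaks near *Nav3*, *Tnip3*, *4930502A04Rik*, *Foxp1*, *Zmiz1*, *Klf10*, and *Inpp5a*, the last named after its value was seen.

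**Figure D1:**
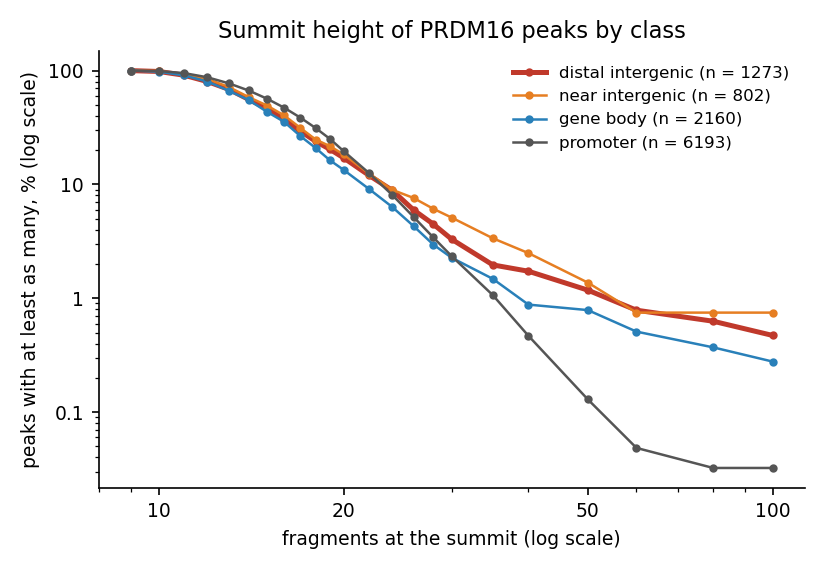
Share of peaks (vertical axis, percent, log scale) with at least a given number of fragments at the summit (horizontal axis, log scale) in 4 classes of PRDM16 peaks from the single anti-Flag library. At 15 fragments the distal intergenic curve is at 46.5%, below the promoter curve at 56.7%, and at 40 fragments it is at 1.73%, between the near intergenic curve at 2.49% and the gene body curve at 0.880%.

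The 10 members with the highest fold enrichment lay near *Nav3*, *Tnip3*, *4930502A04Rik*, *Zmiz1*, *Foxp1*, *Hbegf*, *A130077B15Rik*, *Syk*, *Btd*, and *Chst1*. The strongest, at chr10:110026406-110026978, lay 26.3 kb upstream of *Nav3*, which encodes a microtubule-binding protein, with a fold enrichment of 23.6 from 66 fragments (Poisson 95% interval, 51.04 to 83.97). Next came chr6:65509960-65510404, 80.2 kb upstream of *Tnip3*, an inhibitor of NF-κB signalling, with 20.7 from 58 fragments. The member at chr9:68389395-68390246, 130 kb from *4930502A04Rik*, had 18.6 from 52 fragments. A member at chr14:25304405-25305161, 154 kb upstream of the transcriptional coregulator gene *Zmiz1*, had 14.6 from 46 fragments. The member at chr6:98775730-98776067 lay 252 kb from *Foxp1*, a forkhead factor gene, and had 14.4 from 40 fragments. The other 5 had fold enrichments of 11.9 to 14.1 from 33 to 39 fragments, and their intervals overlap one another. Of these 5, the members near *A130077B15Rik* and *Chst1* held 11 and 8 overlapping copies of CAGACAGA, and the member near *Syk*, the gene of a kinase of immune receptor signalling, held 1 AP-1 site and 1 GATA core.

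The ACAAG repeat was found in few members, and those members were tall. ACAAGACAA was present in 28 members (2.20%, 1.47% to 3.16%), against 7 of the same windows moved 5 kb to the left (0.549%) and 10 moved 5 kb to the right (0.785%). These letters were chosen after the strongest peaks had been read, so the comparison with summit height is a description. The 28 members held 257 overlapping copies, up to 26 in 1 peak, and more than 1 copy was found in 23. Of these copies, 85.6% lay within 50 bp of the summit, where 25.8% of all peak bases lay. The 28 members had a median of 23 fragments (16 to 27), a median fold enrichment of 8.44, and a mean of 54.0% soft-masked bases, against 17.4% over all members. Among members with at least 20 fragments 8.26% held the repeat (4.97% to 12.7%), and among the others 0.948% did (0.455% to 1.74%). With soft-masked bases hidden, the share fell to 0.549%, against 0.392% and 0.785% in the flanks. The repeat was not particular to this class, since 1.87% of near intergenic and 1.71% of gene body peaks held it, and 0.178% of promoter peaks did.

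Distal intergenic peaks were richer in G and C than the sequence around them. Their median GC content was 52.6% (52.2% to 53.0%), against 45.3% and 45.7% in windows of the same length 5 kb to the left and right, and 932 members (73.2%) exceeded both of their own flanks. Promoter peaks had a median of 68.4%, gene body peaks 54.4%, and near intergenic peaks 54.7%. In 142 members the sequence within 100 bp of the summit met CpG island criteria, which were a GC content of at least 50% and an observed to expected CpG ratio of at least 0.6. That is 11.1% of the members (9.47% to 13.004%), against 0.863% and 0.785% of the flanking windows, 17.8% of near intergenic peaks, 12.2% of gene body peaks, and 76.6% of promoter peaks. Members were also less often repetitive than their flanks, with 17.4% of bases soft-masked on average, against 28.7% and 28.4%. How far the GC content of the fragments sequenced contributes to these values was not tested.

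Many of the CpG islands lay at transcript starts that the rule did not use. Within 2 kb of a start annotated only as a predicted RefSeq transcript or in GENCODE M21 there were 267 members (21.0%, 18.8% to 23.3%), against 10.5% and 10.8% of the flanking windows. Of the 142 members with CpG island sequence, 85 lay at such a start (59.9%, 51.3% to 68.0%), and of the other 1132 members, 182 did (16.1%, 13.98% to 18.3%). In GENCODE, 180 members lay within 2 kb of a start, and the nearest was of a transcript of a lincRNA gene in 75, of a protein-coding gene in 46, and of a processed pseudogene in 19. The CpG island member with the highest fold enrichment, at chr11:61408080-61408601 and 30.3 kb upstream of the transporter gene *Slc47a1*, lay 323 bp from the start of the lincRNA *Gm45605*, with 28 fragments. A member at chr7:25179262-25180125 had 30 fragments and lay 32 bp from a GENCODE start of *Pou2f2*, the gene of a lymphoid transcription factor. The member at chr19:38480790-38481501 had 28 fragments and lay 25 bp from a GENCODE start of *Plce1*, a phospholipase C gene. Inside a transcript of these annotations lay 466 members (36.6%, 33.9% to 39.3%), some of them also at a start. Neither inside a transcript nor at a start were 736 members (57.8%). Summit height did not separate these kinds, with a median of 14 fragments both at and away from such starts and 15 in the members with CpG island sequence.

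Of 14 motifs, searched on both strands over the whole peak, 10 were found in a larger share of members than in both sets of flanking windows and 3 in a smaller share. For 5 the interval lay above both flanks' intervals. These were the SP/KLF GC box (GGGCGG), in 17.4% of members against 4.08% and 5.81%, the CTCF core (AGGNGGC), in 31.7% against 17.1% and 18.6%, the MECOM second-domain core (GATGAG), in 28.6% against 18.1% and 18.5%, the AP-1 site (TGACTCA), in 12.4% against 6.04% and 6.91%, and the ETS site (CCGGAAG), in 3.92% against 1.41% and 1.33%. The NF-Y box (CCAAT) was rarer in members, at 30.5% against 41.1% and 41.8%. The GATA core (AGATAA) was in 16.1% of members and 18.5% and 18.4% of the flanks, the HAND2 E-box (CATCTG) in 30.5% against 27.6% and 29.2%, the TEAD site (GGAATG) in 21.2% against 20.3% and 19.8%, and the RUNX site (TGTGGT) in 25.1% against 25.9% in both, and for these 4 the intervals overlap. NRF1, CRE, YY1, and tandem GATA sites (GCGCATGC, TGACGTCA, AAGATGGC, and GATAAGATA) were in 0.392% to 2.75% of members. Members and flanks differ in GC content, and the part this plays in the share of GC-rich and AT-rich motifs was not tested.

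**Figure D2:**
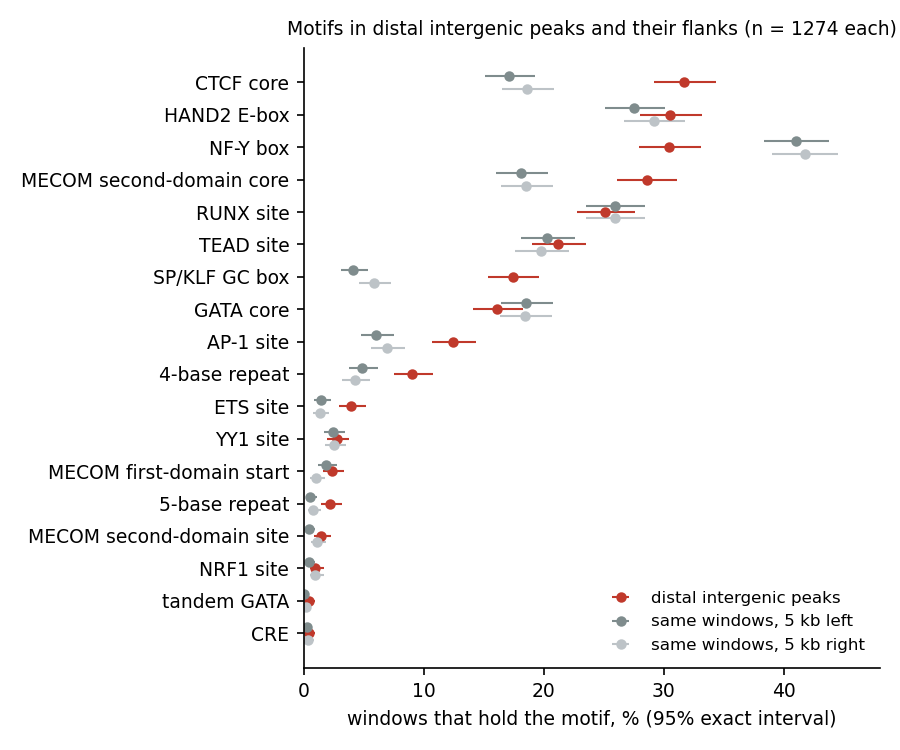
Percent of windows that hold each motif, with exact 95% intervals, for the 1274 distal intergenic peaks and for windows of the same lengths 5 kb to either side. The GC box, CTCF core, MECOM second-domain core, AP-1, and ETS points of the peaks lie to the right of both flanks, the NF-Y point lies to the left, and the rows named 5-base and 4-base repeat are ACAAGACAA and CAGACAGA.

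Of the 4 added sets of letters, the longer second-domain site GAAGATGAG was in 18 members, 5 left and 14 right windows, and the first-domain start GACAAGAT was in 30, 24, and 13, so neither stood apart from both flanks. CAGACAGA was in 115 members (9.03%, 7.51% to 10.7%), against 4.87% and 4.24% of the flanks. For comparison with promoters, the 300 bases around each summit were set against the 300 bases at 32817 RefSeq gene starts. AP-1 sites were in 11.9% of the former and 5.205% of the latter, GATGAG in 24.8% and 11.96%, and GC boxes in 14.2% and 35.6%. Over whole peaks, AP-1 sites were in 11.7% of near intergenic, 11.7% of gene body, and 3.58% of promoter peaks. In the same order, GATGAG was in 25.3%, 26.8%, and 19.8%, and the CTCF core in 35.4%, 35.3%, and 56.6%. GC boxes were in 27.6%, 21.9%, and 69.2%, and CAGACAGA in 9.23%, 8.52%, and 3.15%. None of these was particular to distal intergenic peaks.

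AP-1 sites lay beside the summits and not under them. Within 50 bp of the summit the members held 16 AP-1 sites, or 0.127 per kb (Poisson 95% interval, 0.0725 to 0.206), close to the 0.182 and 0.151 per kb at the same positions of the flanking windows. From 101 to 200 bp away they held 76, or 0.563 per kb (0.444 to 0.705), against 0.171 and 0.193 in the flanks, whose intervals end at 0.256 and 0.282. The same offset was seen in gene body peaks, with 0.154 per kb within 50 bp and 0.529 from 101 to 200 bp, and in near intergenic peaks, with 0.251 and 0.634. Promoter peaks had 0.0534 and 0.105 per kb. Of the other motifs counted by position, 26.5% of GATGAG copies, 28.5% of CTCF core copies, and 22.6% of GATA core copies lay within 50 bp of the summit, where 25.8% of the bases lay, against 8.84% of the AP-1 copies (5.14% to 13.96%). Members with an AP-1 site were longer, with a median of 435 bp against 313 bp, and had a median of 15 fragments against 14. The search covered the whole peak, so a longer peak had more bases in which a site could be found. This profile was examined after the shares of motifs had been seen.

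**Figure D3:**
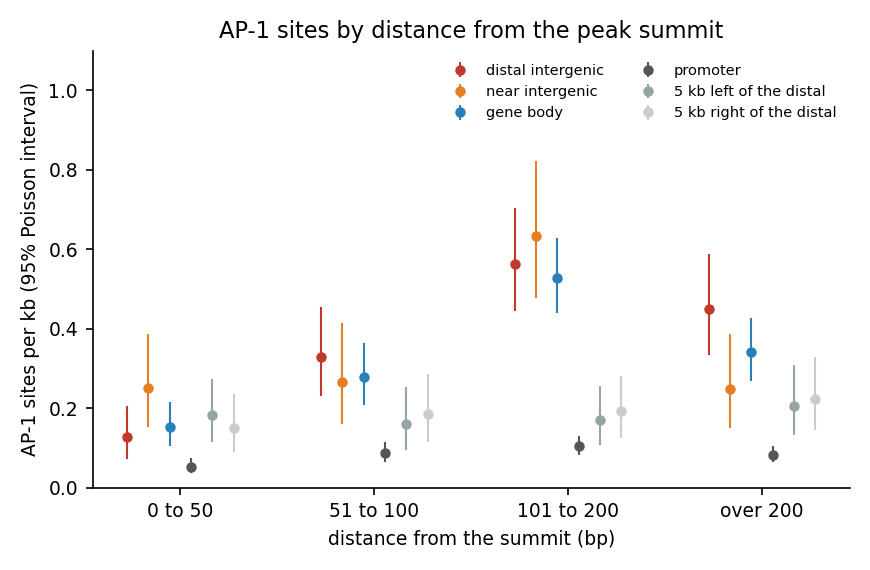
AP-1 sites per kb of sequence (vertical axis, with Poisson 95% intervals) by distance from the summit in bp (horizontal axis) for 4 classes of PRDM16 peaks and for the flanking windows of the distal intergenic peaks. The distal intergenic points rise from 0.127 within 50 bp to 0.563 at 101 to 200 bp, and the flanks stay between 0.151 and 0.224.

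By distance, 599 members lay 20 to 50 kb from the nearest TSS, 359 lay 50 to 100 kb, 301 lay 100 to 500 kb, and 15 farther, with a median of 53.5 kb. Their median height was 14, 15, and 14 fragments at 20 to 50 kb, 50 to 100 kb, and over 100 kb. GC content was 53.7% (53.0% to 54.2%) in the nearest of these bins and 50.1% (49.4% to 51.1%) in the farthest. The CpG island share was 13.02% in the nearest and 8.54% in the farthest, with overlapping intervals, and AP-1 sites were in 12.02%, 13.9%, and 11.4%. Upstream of the nearest gene lay 53.1% of members (50.3% to 55.8%). The farthest member, at chr1:147716195-147716436, was 1219 kb from *Brinp3* and had 12 fragments. The 3 members just inside the 20 kb limit, near *Hcn4*, *5031425F14Rik*, and *Shf*, had fold enrichments of 3.87, 4.92, and 7.03, and the 3 intergenic peaks just outside it, near *Fbln2*, *2810433D01Rik*, and *Arsi*, had 6.68, 4.54, and 7.38.

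The members were unevenly spread over the chromosomes. Distal sequence under the rule made up 1268 Mb, 47.9% of the known bases, and held 1.01 members per Mb. Chromosome 15 had 101 members in 48.6 Mb, or 2.08 per Mb (Poisson 95% interval, 1.69 to 2.52), and the other 18 autosomes ranged from 0.756 to 1.44. Chromosome X had 7 members in 99.5 Mb, or 0.0704 per Mb (0.0283 to 0.145), and chromosome Y had none in 84.0 Mb, which allows up to 0.0439 per Mb. Promoter peaks were at 32.4% of curated genes on chromosome 15, against 14.4% to 28.3% on the other autosomes and 4.97% on chromosome X. Gene body peaks on chromosome 15, at 1.69 per Mb of the chromosome, were above the median of the other autosomes, 0.915. They lay within the range of those autosomes, 0.339 to 1.802, whose highest value was on chromosome 11. Peaks of all kinds were at 7.33 per Mb on chromosome 15 and 7.88 per Mb on chromosome 11. On chromosome X there were 0.0428 gene body peaks per Mb. The median member of chromosome 15 had 14 fragments, within the range of 13 to 16 on the other autosomes. The chromosome content of the cultured cells was not tested.

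**Figure D4:**
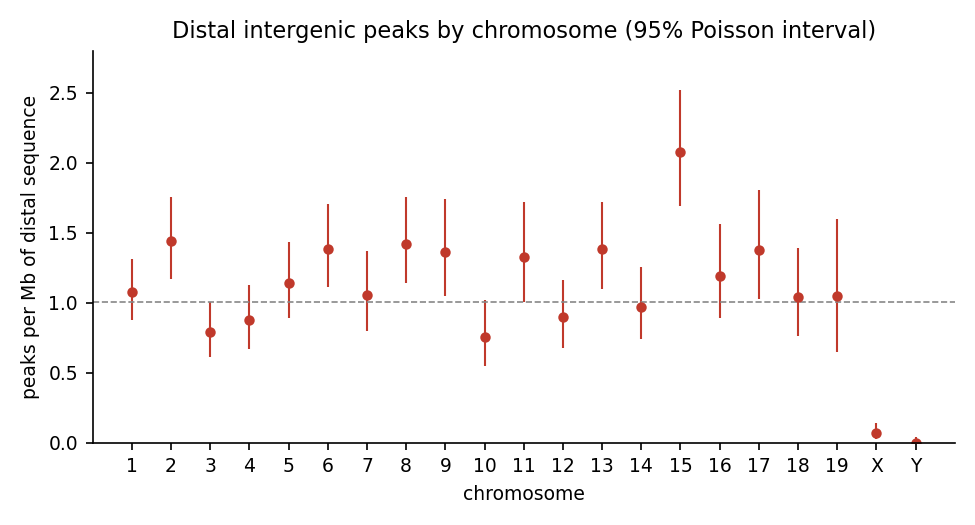
Distal intergenic PRDM16 peaks per Mb of distal sequence on each chromosome, with Poisson 95% intervals, and the value over all chromosomes as a dashed line at 1.01. Chromosome 15 stands at 2.08 and chromosome X at 0.0704, and the other autosomes lie between 0.756 and 1.44.

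Members often came in groups. With members joined where the next lay within 20 kb, 400 members (31.4%) fell into 164 groups of 2 or more, and 39 groups held at least 3. The 2 groups with the most members held 8. The first spanned 26.8 kb at chr8:126660599-126687400, 66.8 to 93.2 kb from *Irf2bp2*, the gene of a transcriptional corepressor, with 11 to 21 fragments per member. *Irf2bp2* was the nearest gene of 12 members in all, the most of any gene. The second spanned 67.4 kb at chr2:167828087-167895474 near *Ptpn1*, the gene of a protein tyrosine phosphatase, and *Gm14321*, with 12 to 28 fragments. Groups of 7 lay at chr15:85653529-85683374 near *Lncppara*, with 10 to 17 fragments, and at chr12:86790552-86836753 near *Irf2bpl*, a relative of *Irf2bp2*, and *Lrrc74a*, with 10 to 25. A group of 6 at chr8:122144434-122186359 lay near *Zfp469*, with 10 to 18 fragments. None of the 7 members near *Lncppara* held an AP-1 site, whereas 3 of 7 near *Irf2bpl* and 3 of 6 near *Zfp469* did.

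A few members lay over very high local background. At 26 members the background exceeded 5 fragments, and for 1 more it could not be recovered. Of the members, 2 overlapped 1 of the 67 vector peaks, and both are among these 27. The first, at chr14:124801676-124801987, had 839 fragments over a background of 708 and was entirely soft-masked, for a fold enrichment of 1.19. The other, at chr2:98666722-98667203, had a fold enrichment of 1.27, the highest −log10 q of all members at 292, and 98.8% soft-masked bases. A group of 4 at chr6:47744318-47753804 near *Rny3*, a small noncoding RNA gene, had 54 to 89 fragments over a background of 24.5 to 30.9. Without the 2 vector-overlapping members the median fold enrichment was 4.92, the median height 14 fragments, the median GC content 52.6%, and the CpG island share 11.2%.

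The nearest genes numbered 922, of which 697 were nearest to 1 member and 29 to 4 or more. Over all curated genes, 3.52% were nearest to a member, and since the chance of being nearest grows with the empty sequence around a gene, the shares of lists are given as descriptions. Of 26 AP-1, EGR, and KLF factor genes, 10 were nearest to a member (38.5%), among them *Klf4*, a regulator of smooth muscle phenotype, with 3 members, *Klf6* with 2, *Klf10*, and *Klf7*. The *Klf10* member, at chr15:38384179-38384818, was the tallest of these with 43 fragments and lay 482 bp from a start of the lincRNA *Gm26863*. Of 36 extracellular matrix genes 8 were (22.2%), including *Col5a1* with 4 members and *Col5a2* with 2, which encode chains of type V collagen. Counts were 6 of 42 forkhead, T-box, and SOX genes, 5 of 36 TGF-β and BMP pathway genes, 4 of 29 GATA, HAND, TWIST, RUNX, and TEAD genes, 2 of 21 adrenergic and vasoactive receptor genes, 2 of 23 clock genes, and 5 of 77 homeobox genes. *Meis1*, a homeobox gene, had 4 members 142 to 148.6 kb away at chr11:18870135-18877396, with 11 to 16 fragments. These 4 members lay 413 to 1832 bp from a start of the long noncoding RNA gene *8430419K02Rik*. *Arntl*, the clock gene that encodes BMAL1, had 2 members 21.0 and 21.7 kb upstream, with 17 and 11 fragments. The study also reports PRDM16 peaks in the promoter regions of *Arntl*, *Col5a1*, *Klf6*, and *Klf10*. No member was nearest to any of 22 smooth muscle contractile genes or 15 PRDM family genes. At the share of 3.52% over all curated genes, lists this short would hold few such genes or none.

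In the aortas, *Prdm16* itself was at 56.1, 47.6, and 40.3 TPM in Control and 23.3, 33.3, and 23.4 TPM in *Prdm16*SMKO. The groups did not overlap, and the log2 difference was −0.85 ± 0.18 (SE, n = 3 each) without passing the test (limma, adjusted p = 0.0725). Of the 922 nearest genes, 884 were found in the TPM table and 528 were expressed highly enough to test. Of these, 12 passed at an adjusted p of 0.05 (2.27%), 2 higher and 10 lower in *Prdm16*SMKO. Over all 15668 genes tested, 1.07% passed, 0.389% higher and 0.683% lower. The median log2 difference was −0.13 over the nearest genes and −0.12 over all genes. After median-ratio rescaling, which moves the median of all genes to 0.00024, 26 of the 528 passed, 8 higher and 18 lower, against 2.62% of all genes. The nearest genes tested also had a higher median level, 12.4 TPM against 8.68 TPM over all genes tested.

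The gene with the largest rise was *Ankrd1*, which encodes a muscle ankyrin repeat protein. It was at 7.66, 6.94, and 7.26 TPM in Control and 35.7, 39.7, and 33.2 TPM in *Prdm16*SMKO, a log2 difference of 2.29 ± 0.13 (limma, adjusted p = 0.000164). Its member, at chr19:36207797-36208030, lay 88.1 kb upstream and had 17 fragments. *Mamdc2*, a proteoglycan gene with a member of 14 fragments 44.5 kb upstream, rose by 1.00 ± 0.16 (adjusted p = 0.0261).

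*Ccdc42*, which encodes a coiled-coil protein, was at 60.3, 44.6, and 47.7 TPM in Control and 16.5, 18.5, and 14.5 TPM in *Prdm16*SMKO, a log2 difference of −1.61 ± 0.16 (limma, adjusted p = 0.00284), and its member had 10 fragments. That member lay 51.6 kb from the TSS of *Ccdc42* and 53.3 kb from that of *Myh10* on its other side. *Csrp1*, a LIM domain gene of smooth muscle with 3 members 32.1 to 50.3 kb upstream, was at 1407 to 1623 TPM in Control and 695 to 869 TPM in *Prdm16*SMKO. Of its members, 2 lay 181 and 1071 bp from a start of the lincRNA *Gm38399*. *Mylk4*, a gene of the myosin light chain kinase family with 2 members 105.1 and 153 kb away, was at 260 to 333 TPM and 136 to 163 TPM. The groups did not overlap for any of the 12 genes, which their selection by the test makes likely, and over the 528 nearest genes they did not overlap for 27.8%, against 19.03% of all genes tested. *Dhrs3* and *Cyp26b1*, which encode enzymes that reduce retinaldehyde and degrade retinoic acid, fell by 0.86 ± 0.14 and by 1.23 ± 0.23 on the log2 scale (limma, adjusted p = 0.0249 and 0.0468). *Tm4sf1*, *Sdc1*, *Fbn1*, which encodes fibrillin-1, *Plxna4*, and *Ergic1* also fell, with log2 differences of −0.83, −0.94, −0.72, −0.85, and −0.67. Of the genes that fell, *Dhrs3*, *Sdc1*, *Fbn1*, *Plxna4*, and *Ergic1* are also listed by the study with PRDM16 peaks in their promoter regions. So is *Myh10*, the other neighbour of the *Ccdc42* member. Without single aortas 4 or 5 passed, or 0.762% to 0.956% of the nearest genes tested against 0.583% to 0.896% of all genes, and without *Prdm16*SMKO replicate 3 the share of the nearest genes (0.762%) was below that of all genes (0.896%). The widest gap among these fits was 0.952% against 0.583%, without Control replicate 1, so the gap of 2.27% against 1.07% was not kept at that size. *Ankrd1* and *Ccdc42* passed in all 15 fits.

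**Figure D5:**
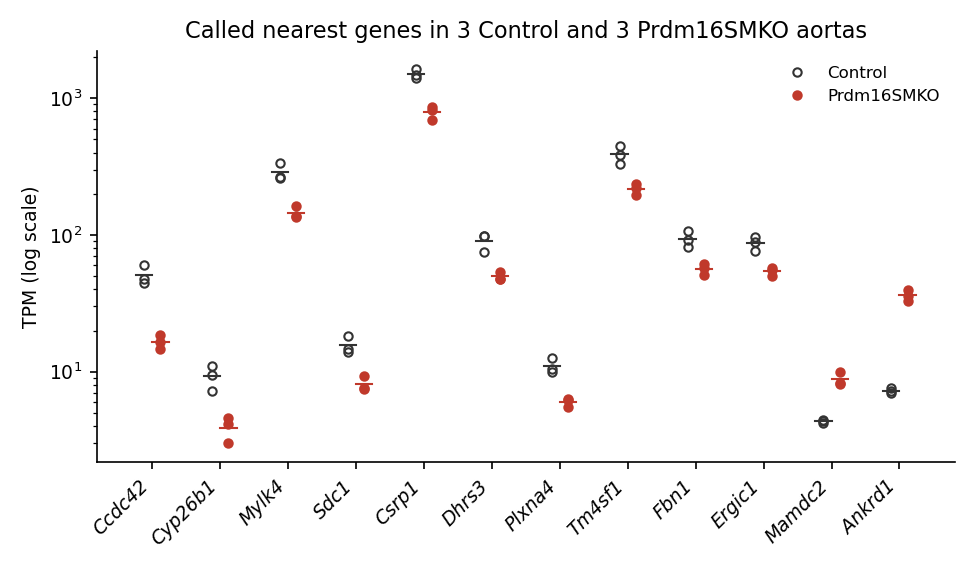
TPM (log scale) of the 12 nearest genes that passed the test, for 3 Control aortas (open circles) and 3 *Prdm16*SMKO aortas (filled circles), with lines at the group means. *Ankrd1* and *Mamdc2* are higher in *Prdm16*SMKO and the other 10 are lower, and the groups overlap for none.

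Of the listed genes near members, *Fbn1* passed, and several others whose groups did not overlap had values short of the threshold. *Arntl* was at 2.71, 1.70, and 2.18 TPM in Control and 0.77, 0.53, and 0.62 TPM in *Prdm16*SMKO, a log2 difference of −1.62 ± 0.34 (limma, adjusted p = 0.0721). The study's own analysis lists *Arntl* among the differentially expressed genes, as lower in *Prdm16*SMKO. It also lists *Klf6*, *Smad3*, and *Postn* as lower, which are nearest genes that fell short of the threshold here. *Col5a2* was at 93.4 to 116 TPM and 62.2 to 72.0 TPM, with a difference of −0.60 ± 0.12 (limma, adjusted p = 0.0660). Of the genes of the strongest members, *Foxp1* was at 80.6 to 94.6 TPM in Control and 79.0 to 110 TPM in *Prdm16*SMKO and *Zmiz1* at 24.7 to 40.4 and 23.1 to 29.9 TPM, so the groups overlapped, and *4930502A04Rik* was listed at 0 in all 6. The study, however, lists *Foxp1* as higher in *Prdm16*SMKO, with a PRDM16 peak in its promoter region. *Hbegf* was at 16.29 to 16.71 TPM in Control and 13.74 to 16.15 TPM in *Prdm16*SMKO, and *Btd* at 15.27 to 16.81 and 13.13 to 15.06 TPM. For both genes the groups did not overlap, but neither passed the test. The groups overlapped for *Nav3*, *Tnip3*, *A130077B15Rik*, *Syk*, and *Chst1*. In whole tissue, fewer cells of a type and less RNA per cell cannot be told apart. Smooth muscle markers summed to 19868 to 23002 TPM in Control and 13129 to 16873 TPM in *Prdm16*SMKO (*Myh11*, *Acta2*, *Tagln*, *Cnn1*, and *Lmod1*, of which none passed the test), and their part in the lower values of *Csrp1* and *Mylk4* was not tested. The brown adipocyte marker *Ucp1* ranged from 15.3 to 117 TPM in Control and 22.4 to 127 TPM in *Prdm16*SMKO, and the hemoglobin gene *Hba-a1* from 186 to 917 and 137 to 555 TPM.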

How the data were processed

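ChIP-Seq of fibroblasts (1 anti-Flag library for PRDM16 and 1 for the vector) and RNA-Seq of 6 aortas were used. The submitters' processing notes name Bowtie2 2.3.4.1, MACS2, STAR 2.7.8a, and RSEM 1.3.3. The study's methods give MACS2 a genome size preset for human (-g hs) and a q threshold of 0.01. The authors deposited, for each peak, the fold enrichment as a ratio, −log10 p, −log10 q, and a score that was not used here. The control library given to MACS2 is not stated, and libraries made with IgG were not used here. For RNA-Seq, the authors deposited TPM per aorta. TPM keep no depth, so the depth of the aortas is unknown here.

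The members and lists were chosen with earlier results of these data known. Named peaks were the 10 with the highest fold enrichment, the farthest, those over a vector peak, those next to the 20 kb limit, the 5 groups with the most members, and the strongest with each motif. Named genes were their nearest genes, nearest genes that passed the test, and at most 4 per list, and others were named after their values were seen. Fragments were recovered where a single whole number met both deposited values, with a tolerance of 0.002 on −log10 p that widens in proportion above a −log10 p of 10. Shares have exact Clopper-Pearson intervals, medians order-statistic intervals, and densities Poisson intervals, all at 95%. Nearest genes were matched to the TPM table by symbol, Ensembl identifier, or synonym. Genes whose TPM averaged 0.5 or more were tested with limma 3.58.1 on log2(TPM + 0.1), a scale that understates changes of low genes, with Benjamini-Hochberg adjustment over all genes tested. Sequences and transcripts came from RefSeq GRCm38. Scripts were tested on simulated data.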

Additional observations from a re-analysis of the deposited data

How the results depend on the processing

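Alternative definitions changed the number of members most. It was 675 at more than 50 kb from a TSS, 650 with predicted RefSeq transcripts, 602 with GENCODE transcripts, and 635 at a q of at most 1e-05. The median fold enrichment rose to 5.27 at a q of at most 0.001 and 5.98 at 1e-05, and the median height to 15 and 17 fragments, as a stricter q removes low peaks by construction. Median GC content was 51.6% beyond 50 kb, 51.4% with predicted transcripts, and 51.7% with GENCODE. The CpG island share was 7.23% with predicted transcripts, 6.48% with GENCODE, and 6.59% at a GC content of 55% and a CpG ratio of 0.75. Members at a start outside the curated set were 15.7% within 1 kb and 32.5% within 5 kb, against 5.89% and 6.12%, and 26.9% and 29.3%, of the flanks. The number of motifs above both flanks was between 7 and 12 throughout. Within 100 bp of the summit the AP-1 share fell to 4.79% (3.68% to 6.11%), against 3.45% and 3.06% of the flanks, and the MECOM second-domain core to 16.95%, against 9.89% and 10.8%, in windows that are shorter than most peaks. Of the vector overlaps, both also met a minimum of 50% of the shorter peak.

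The number of nearest genes that passed was 3 with no TPM filter, 26 with median-ratio rescaling, 26 with quantile normalization, 2 without a trend, and 4 to 5 without 1 aorta, each aorta included, and the cause was not tested. The share of nearest genes was near that of all genes with no TPM filter (0.435% against 0.419%) and without a trend (0.379% against 0.306%). It was 4.92% against 2.62% with median-ratio rescaling, 4.92% against 2.5% with quantile normalization, and 2.08% against 1.17% with the replicate number as a block. With a mean TPM of at least 1 it was 2.61% against 1.44%. With 1 or 0.01 added to TPM in place of 0.1 it was 1.52% against 0.913% or 1.7% against 0.925%. Without single aortas the gaps were smaller than in the main fit. They ran from 0.762% against 0.896%, without *Prdm16*SMKO replicate 3, to 0.952% against 0.583%, without Control replicate 1. Aortas with the same replicate number did not deviate together (correlations −0.0246, −0.07, and −0.00896), and with the replicate number as a block 11 genes passed, 10 of them among the 12.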
